A study of Mus musculus with 2 samples.

Results

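The antisense noncoding genes expressed in the hippocampus of old mice are described here. They were chosen by annotation and by measured level: a gene had at least 1 transcript of the annotation type antisense, none of type protein_coding or lincRNA, and a TPM (a relative transcript abundance corrected for length) of at least 1 in both libraries. Kcnq1ot1, Snhg14 and Dlx6os1 meet these terms and were left out. The rule found 181 members among 3067 genes that are antisense by type and 55536 annotated gene rows. Because the rule used the TPM, the levels of the members are a description and carry no test. The tissue was hippocampus of B6CASTF1/J males, which are hybrids of a C57BL/6J and a CAST/EiJ parent, aged 18 to 20 months, and the labels name no treatment. There is 1 group with 2 libraries, replicate 1 and replicate 2, each of total RNA depleted of ribosomal RNA and started from 300 ng. Both stand under the same donor record, and nothing in the labels tells whether 1 animal or more gave the tissue, so the spread between them may be partly technical. With 2 values, the smallest two-sided p of an exact sign-flip test is 0.5, so no p-values are given and differences are set beside the SD of the 2 libraries.

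An antisense gene is transcribed from the strand opposite to another gene, most often a protein-coding gene that it overlaps. Where both genes start close together and run apart, the arrangement is called head to head and the pair is often described as sharing a bidirectional promoter; where their ends meet it is called tail to tail. Some such RNAs are known to act on the neighbouring gene, some act elsewhere, and for most no function is established. In brain, antisense genes lie opposite many transcription factor genes of forebrain development, among them the Dlx, Emx and Prox genes. Mouse genes of this kind often carry the symbol of the other-strand gene with os (opposite strand) or as (antisense) at the end.

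The gene rows summed to 34563482 expected counts in replicate 1, and to 32370292 in replicate 2, so a count of 0 allowed up to 0.0868 and 0.0927 CPM (a count scaled to the size of the library). All 7 markers of hippocampal excitatory neurons were detected, at 30.5 TPM or more (replicate 1) and 28.4 TPM or more (replicate 2). Markers of interneurons, astrocytes, oligodendrocytes and microglia were all detected too, and their summed TPM differed by at most 0.12 between the libraries on the log2 scale. The libraries stood apart in choroid plexus markers: the 6 markers summed to 36.3 TPM in replicate 1 but to 695 TPM in replicate 2, and 3 of the 6 reached 1 TPM in both. Markers of thalamus summed to 27.2 and 22.8 TPM, and those of red blood cells to 348 and 307 TPM. The part of these markers in any difference between the libraries below was not tested. In tissue, fewer cells of a type and less RNA per cell cannot be told apart.

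The members were mostly low. Their median was 2.40 TPM (replicate 1) or 2.24 TPM (replicate 2), 12 members had a mean of at least 10 TPM, 34 of at least 5 TPM, and 78 were under 2 TPM. Long intergenic noncoding genes at the same minimum had medians of 3.02 and 2.92 TPM (n = 304), and protein-coding genes 14.5 and 14.8 TPM (n = 12643). Summed over members, the TPM came to 705 and 693, and their counts to 0.0870% and 0.0852% of the gene counts. The median member rested on 68 counts (replicate 1) or 62 counts (replicate 2). Of the antisense genes by type other than the 3 left out, the members were 5.91%, a share that the rule itself fixed. A further 52 antisense genes reached 1 TPM in 1 library only, and 1615 of the 3067 had no count in either library.

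The members nearest to the threshold show how it divides genes of like level. Just inside lay 2900009J06Rik at 1.31 and 1.00 TPM, Gm19412 at 1.01 and 1.05 TPM, and 1700008J07Rik at 1.01 and 1.04 TPM in replicates 1 and 2. Just outside lay Gm28529 at 1.05 and 0.99 TPM, 0610040B10Rik at 2.13 and 0.99 TPM, and Etaa1os at 1.08 and 0.98 TPM. Of the genes left out by name, Snhg14, the long host transcript of the Snrpn to Ube3a region, stood at 532 and 519.7 TPM, Dlx6os1 at 7.13 and 9.37 TPM and Kcnq1ot1 at 1.68 and 1.42 TPM.

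The 10 highest members held 27.8% of the summed member TPM in replicate 1 and 28.1% in replicate 2. Tug1, a long noncoding RNA widely expressed in brain and retina, was first, at 44.6 and 48.6 TPM in replicates 1 and 2, on chromosome 11 from 3639785 to 3649673 on the minus strand (mm10). It lies head to head with Morc2a, a chromatin ATPase gene at 14.6 and 13.7 TPM, whose start is 482 bases away. Zfas1, a host gene of small nucleolar RNAs, followed at 27.2 and 26.6 TPM on chromosome 2 (167062934 to 167065862, plus strand), with the start of Znfx1 81 bases away. B230334C09Rik stood at 22.9 and 22.3 TPM on chromosome 3 (158067186 to 158076112, minus strand). Its 1 annotated transcript is a single exon of 8927 bases, the longest leading transcript among the members, and it had the most counts, 5082 and 4537. It runs tail to tail into Lrrc40 and begins 6779 bases downstream of Lrrc7, the gene of the postsynaptic protein densin, on its own strand.

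The next members lay near genes of varied function. 4933431E20Rik stood at 22.0 and 22.7 TPM, with its start 392 bases from that of Gstm5, a glutathione S-transferase gene at 116 and 119 TPM. Rab10os stood at 14.3 and 15.4 TPM, tail to tail with Rab10. 2810468N07Rik stood at 15.2 and 12.6 TPM, 328 bases from the start of Sox8, a transcription factor of glial cells at 21.9 and 23.0 TPM. E130307A14Rik, the member with the most annotated transcripts (13), stood at 14.3 and 12.3 TPM, 111 bases from the start of Rev3l, the catalytic subunit of a translesion DNA polymerase. Gm11175 stood at 13.6 and 11.9 TPM and lies wholly inside Jund, an AP-1 transcription factor gene at 73.4 and 78.0 TPM. Gm13375 stood at 11.4 and 11.1 TPM, 173 bases from the start of Arhgap21, at 145 and 143 TPM. A330009N23Rik stood at 10.8 and 11.2 TPM, 998 bases from the start of Grasp, a scaffold of metabotropic glutamate receptors at 34.2 and 35.4 TPM. In 5 of these 10 members replicate 1 was the higher by more than 0.5 TPM, and in Tug1, 4933431E20Rik and Rab10os replicate 2 was.

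**Figure D1:**
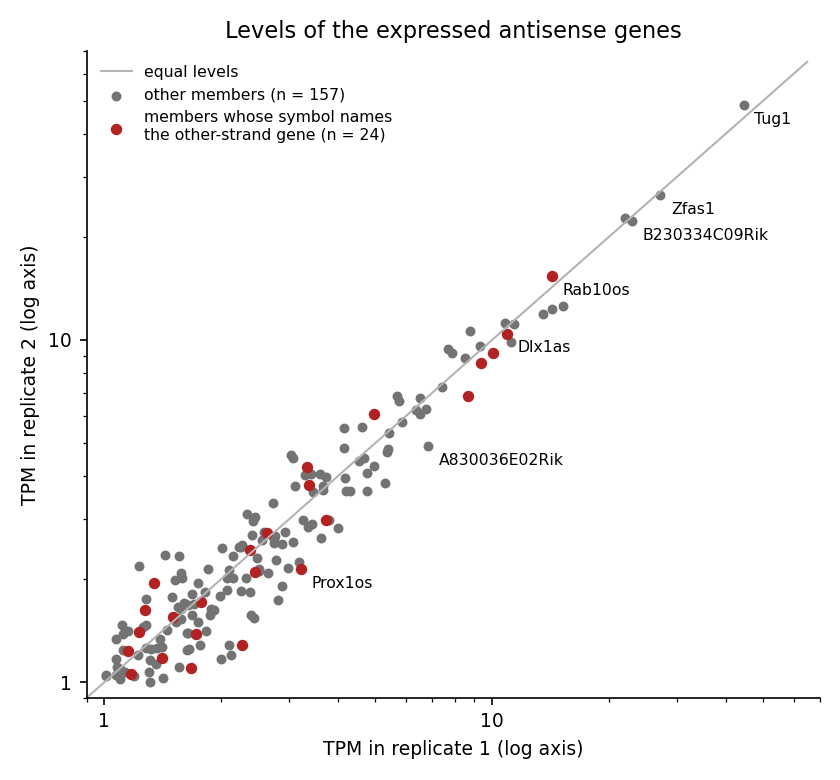
TPM of each of the 181 members in replicate 1 (x axis) and replicate 2 (y axis), both on log axes, with the 24 members named after another gene in red. Points lie along the line of equal levels from 1 TPM up to Tug1 at 44.6 and 48.6 TPM, and scatter more widely toward the low end.

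For 24 members the symbol names the gene on the other strand, and these pairs were described one by one. In 21 of the 24 pairs the antisense gene was lower than its partner in both libraries. All members had medians of 2.40 and 2.24 TPM, and protein-coding genes at the same minimum 14.5 and 14.8 TPM. Whether the direction is particular to these pairs was not tested. The median log2 ratio of the antisense TPM to the partner TPM was -2.34 in replicate 1 and -2.37 in replicate 2, so the partner was 5.12-fold higher at the mean of these medians (-2.36 ± 0.03, SD, n = 2). The partners themselves were well expressed, which the rule did not use: 22 of the 24 had at least 1 TPM in both libraries, against 74.2% of the partners of the 240 symbol-named antisense genes that are not members and 57.7% of all protein-coding genes. The median partner stood at 22.7 and 22.5 TPM in the 2 libraries, above 79.3% of all protein-coding genes. The median partner of the other 240 stood at 7.38 and 7.42 TPM. Over the 24 pairs, the level of the antisense gene and that of its partner were only weakly related (Spearman rank correlation 0.23 across pairs, which share both libraries). The mean log2 ratio lay more than 2 SD from 0 in 22 pairs, with Brip1os, which gives no ratio in replicate 1, and Ccdc142os as the others. An SD of 2 libraries is itself imprecise, and it does not cover the choice of quantification or of length.

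**Figure D2:**
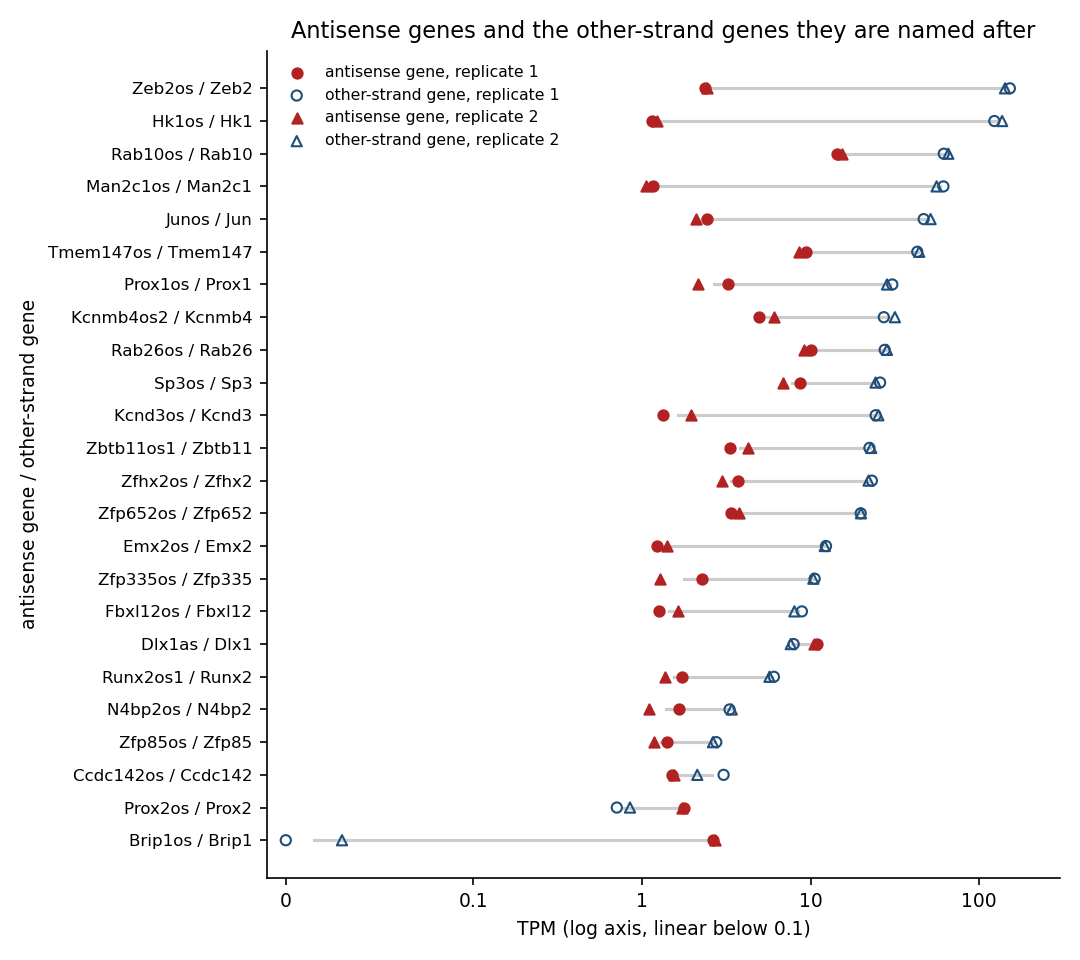
TPM of each antisense gene (filled red) and of the other-strand gene that its symbol names (open blue) in replicate 1 (circles) and replicate 2 (triangles), on a log axis that is linear below 0.1, with a grey line between the means. The red points lie left of the blue ones in 21 of 24 pairs; Dlx1as, Prox2os and Brip1os lie to the right.

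Transcription factor genes made up 13 of the 24 partners, by a classification made by hand with the pairs known. Other genes were not classified, so whether this share is higher than among other partners or all protein-coding genes was not tested. Their pairs had a median log2 ratio of -2.56 in replicate 1 and -2.43 in replicate 2, and the 11 other pairs -2.20 and -2.30. By TPM, the widest gap among them was that of Zeb2, a zinc finger homeobox repressor of neural development: Zeb2 stood at 152 and 142 TPM, and Zeb2os, which lies inside it, at 2.38 and 2.44 TPM. Jun, the AP-1 factor of immediate early responses, stood at 46.8 and 51.5 TPM, and Junos at 2.44 and 2.10 TPM. Prox1, which maintains dentate granule cell identity, stood at 30.5 and 28.4 TPM, and Prox1os at 3.22 and 2.14 TPM. Emx2, a homeobox factor needed to form the hippocampus, stood at 12.3 and 12.1 TPM, and Emx2os at 1.23 and 1.40 TPM. In all 4 of these pairs the libraries did not overlap between the genes, and the partner was at least 9-fold higher on average, from 9.35-fold (Emx2) to 61.0-fold (Zeb2). The order of the widest gaps rests on the length used: with counts per exonic base the log2 ratio was -4.18 for Zeb2os and -7.35 for Junos, against -5.93 and -4.44 by TPM.

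The other transcription factor pairs were closer in level. Sp3, a GC box binding factor, stood at 25.8 and 24.3 TPM, and Sp3os at 8.65 and 6.85 TPM. Zfhx2, a zinc finger homeobox gene, stood at 23.1 and 22.1 TPM, and Zfhx2os at 3.73 and 2.98 TPM. Zbtb11 stood at 22.3 and 22.9 TPM, with Zbtb11os1 at 3.34 and 4.26 TPM. Zfp652 stood at 19.8 and 19.9 TPM, with Zfp652os at 3.37 and 3.76 TPM. On average over the libraries these 4 partners were above their antisense genes by 3.27-fold (Sp3) to 6.80-fold (Zfhx2). Zfp335, a zinc finger gene of neural progenitors, stood at 10.6 and 10.4 TPM, with Zfp335os at 2.27 and 1.28 TPM, the pair whose ratio varied most between the libraries (SD 0.57 on the log2 scale). Runx2, best known from bone, stood at 6.06 and 5.71 TPM, with Runx2os1 at 1.72 and 1.38 TPM. Zfp85 stood at 2.76 and 2.64 TPM, with Zfp85os at 1.41 and 1.18 TPM.

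Dlx1 and Prox2 were the transcription factor genes below their antisense gene. Dlx1, a homeobox gene of forebrain interneurons, stood at 7.94 and 7.63 TPM, and Dlx1as, whose transcription unit spans it, at 10.9 and 10.4 TPM, a log2 ratio of 0.46 ± 0.01. The order of these levels rests on the length correction: Dlx1as had 145 and 130 counts, and Dlx1 had 441 and 426. With counts per exonic base, another correction for length, the log2 ratio was only 0.07. Prox2, a relative of Prox1, stood at 0.71 and 0.85 TPM, and Prox2os at 1.77 and 1.72 TPM, on 46 and 41 counts against 33 and 34. In both pairs the TPM values of the genes did not overlap.

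Outside the transcription factors, the widest gaps by TPM were those of enzymes. Hk1, the main hexokinase of brain, stood at 123 and 137 TPM, and Hk1os, which lies inside it, at 1.15 and 1.23 TPM on 11 counts in each library, a 109-fold difference and the widest of the 21 pairs whose partner was the higher. Man2c1, a cytosolic mannosidase, stood at 61.3 and 55.9 TPM, with Man2c1os at 1.17 and 1.06 TPM. Kcnd3, a subunit of A-type potassium channels, stood at 24.3 and 25.2 TPM, with Kcnd3os at 1.34 and 1.95 TPM. Kcnmb4, the neuronal beta subunit of the BK potassium channel, stood at 27.2 and 31.6 TPM, with Kcnmb4os2 at 4.96 and 6.06 TPM. Both genes of the Kcnmb4 pair had their higher value in replicate 2, and in 16 of the 24 pairs the log2 ratio of the libraries had the same sign in both genes. No rate for other gene pairs was taken, and whether the genes of a pair move together was not tested.

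Rab10, a small GTPase of exocytic and endosomal transport, stood at 61.6 and 65.5 TPM, with Rab10os at 14.3 and 15.4 TPM. Rab26, a small GTPase of secretory and synaptic vesicles, stood at 27.5 and 28.4 TPM, with Rab26os at 10.1 and 9.14 TPM. Tmem147, an endoplasmic reticulum membrane protein, stood at 42.9 and 44.0 TPM, with Tmem147os at 9.36 and 8.55 TPM. In these 3 pairs the partner was 2.92-fold (Rab26) to 4.87-fold (Tmem147) higher. The log2 ratio of antisense gene to partner rests on the quantification for Rab26os, at -1.54 here and -4.12 in the second quantification described below. For Rab10os it rests on the length used, at -2.10 here and -3.68 with counts per exonic base. Fbxl12, an F-box protein gene, stood at 8.88 and 8.02 TPM, with Fbxl12os at 1.27 and 1.63 TPM. N4bp2 stood at 3.31 and 3.41 TPM, with N4bp2os at 1.67 and 1.10 TPM. Ccdc142 stood at 3.05 and 2.13 TPM, with Ccdc142os at 1.5 and 1.55 TPM, and the mean log2 ratio of -0.74 had an SD of 0.40.

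Brip1os was the member whose partner was all but absent. Brip1, a DNA helicase that works with BRCA1 in repair, was listed at 0 in replicate 1, with 0.03 TPM in replicate 2, on 0 and 5 counts, while Brip1os stood at 2.63 and 2.72 TPM on 283 and 271 counts. A second quantification, described below, gave Brip1 0.99 and 1.30 TPM and Brip1os 3.89 and 4.03 TPM, so Brip1os was the higher in both and the size of the gap rests on the quantification. In replicate 1 no fold can be given, since Brip1 is listed at 0.

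Position entered the rule only through the annotation type antisense, so overlap with a gene on the other strand is largely given by the selection. In the annotation, 169 of the 181 overlap a protein-coding gene on the other strand and 12 overlap none. By the largest overlap, 77 lie head to head, 46 tail to tail, 35 inside the other gene, and 11 span it. The same shares are not given for the other antisense genes, so whether they are particular to the members was not tested. A protein-coding start lay head to head within 1000 bases for 93 of the 181 members (51.4%), against 19.6% of the 2883 antisense genes below the minimum. Of these 93 members, 62 overlap the neighbour and 31 do not, and the median distance between the starts was 328 bases (range 2 to 998). Within 100 bases alone, 21 members and 107 other antisense genes had such a start, which is 11.6% and 3.71%. The 24 pairs above include 13 head to head, 12 of them with starts within 1000 bases, and these 13 had a median log2 ratio of -2.60 against -1.93 for the 11 in other arrangements. Members sit on 19 chromosomes, with the most, 23, on chromosome 7, and none on X or Y. No share per chromosome was taken for all antisense genes, so whether this spread is particular to the members was not tested. Members are not fully independent of each other: AC165951.2 and AC166166.1 share the nearest coding start, that of Glp1r, and Gm20687 and Zfhx2os share that of Zfhx2.

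**Figure D3:**
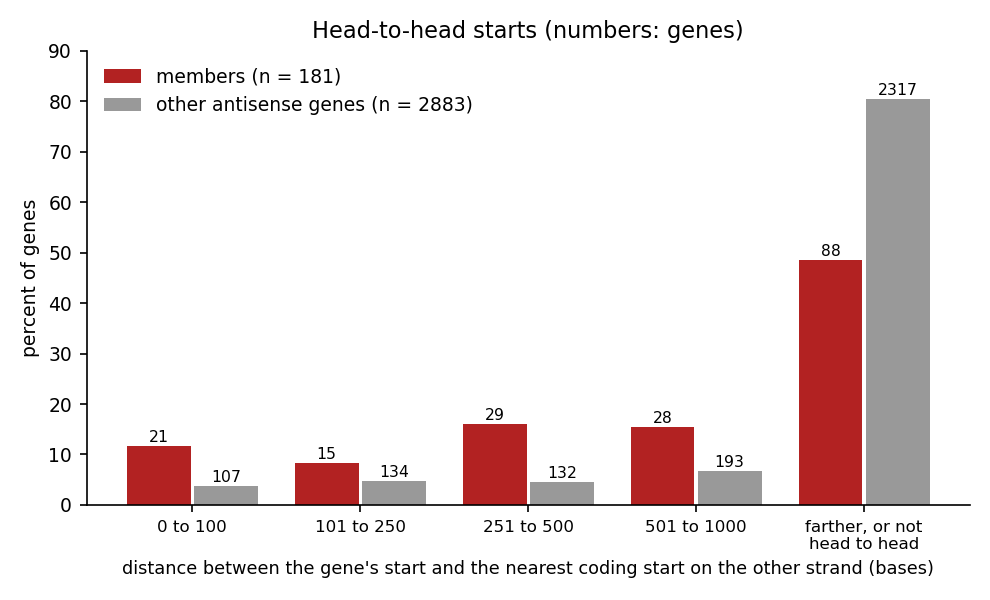
Percent of the 181 members (red) and of the 2883 other antisense genes (grey) by the distance in bases to the nearest protein-coding start on the other strand when the 2 genes lie head to head; numbers above the bars are genes. Members have the larger share in each band up to 1000 bases, and the other genes in the last class (2317 of 2883 against 88 of 181).

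For some of the close head-to-head arrangements the promoter sequence can be shown, with the starts taken from the annotation. Of the symbol-named members and the 10 highest, 5 begin within 250 bases of a coding start without overlapping it, and in 3 of them both starts fall inside a RefSeq promoter window of the mouse assembly GRCm38.p6. The stretches are shown 5′ to 3′ because they hold the space between the starts; capitals mark that space, and bases that the coding gene transcribes are left out. The first is chr7:30729541-30729740 on the minus strand, 39 bases between the starts; the second is chr11:86201194-86201393 on the minus strand, 177 bases between the starts; the third is chr13:67729174-67729311 on the plus strand, 89 bases between the starts.
Tmem147os and Tmem147: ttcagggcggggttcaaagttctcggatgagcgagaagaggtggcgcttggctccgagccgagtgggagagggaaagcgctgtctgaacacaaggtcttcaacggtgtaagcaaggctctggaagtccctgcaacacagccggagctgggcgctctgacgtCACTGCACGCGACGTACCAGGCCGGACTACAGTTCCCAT
Brip1os and Brip1: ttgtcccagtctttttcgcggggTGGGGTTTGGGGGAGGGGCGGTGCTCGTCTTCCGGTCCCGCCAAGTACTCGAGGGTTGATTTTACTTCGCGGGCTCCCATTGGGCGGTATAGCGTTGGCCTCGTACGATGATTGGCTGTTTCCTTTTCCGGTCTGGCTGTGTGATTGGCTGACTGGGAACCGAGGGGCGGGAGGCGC
Zfp85os and Zfp65: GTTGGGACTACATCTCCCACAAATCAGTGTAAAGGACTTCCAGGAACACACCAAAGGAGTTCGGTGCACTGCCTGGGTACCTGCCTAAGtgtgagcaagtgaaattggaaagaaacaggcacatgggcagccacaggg
The first stretch has 15 CpG dinucleotides in 200 bases and 60% G or C, the second has 17 in 200 bases and 61.0%, and the third has 1 in 138 bases and 51.4%. The coding genes beside the first and second stretch differed widely in level: Tmem147 stood at 42.9 and 44.0 TPM and Brip1 at 0 and 0.03 TPM.

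Over all members with a RefSeq promoter window (88 of 181; 250 bases before to 50 after the start), the windows were richer in CpG than most. The median was 26 CpG dinucleotides and 65.3% G or C for the 47 windows of members with a head-to-head start within 1000 bases, 13 and 58.7% for the 41 others, and 7 and 52.7% for all 32851 windows in the table. The letters GGGCGG (a GC box), searched on both strands, were found in 44 of the 88 windows (50%) and in 35.7% of all windows. CCAAT, on both strands, was found in 37 (42.0%) and in 37.4% of all, and TATAAA, on both strands, in 10 (11.4%) and in 13.6% of all. CCAAT and TATAAA differ in their letters from the GC box, so a match to one is no match to another.

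The coding neighbours of the 93 members with close head-to-head starts were expressed in nearly all cases. Of these neighbours 89 (95.7%) had at least 1 TPM in both libraries, against 57.7% of all protein-coding genes. The medians over the 93 were 22.8 and 22.9 TPM. The same share is not given for the 566 antisense genes below the minimum with such a start. Whether it is particular to the members was therefore not tested. The exceptions were Brip1, Dnase1, Acot12 and Ankrd53, beside Brip1os, Gm15879, 4833422C13Rik and 1700124L16Rik. In 79 of the 93 cases the member was below its neighbour in both libraries, and in 14 it was above. The medians of all members were likewise below those of protein-coding genes at the minimum. Levels of member and neighbour were unrelated in rank (Spearman rank correlation 0.05 over 93 pairs, which share both libraries).

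The 14 members above their neighbour ranged widely. Besides Tug1, Zfas1, Brip1os and E130307A14Rik, A930005H10Rik stood at 11.2 and 9.89 TPM beside Dph5, an enzyme gene of diphthamide synthesis, at 5.29 and 6.33 TPM. Gm26782 stood at 7.68 and 9.42 TPM beside Tep1, a telomerase-associated protein gene, at 1.16 and 1.77 TPM. 2310009A05Rik stood at 7.89 and 9.18 TPM beside Pigb, a gene of GPI anchor synthesis, at 4.99 and 5.04 TPM. These 3 members and their neighbours did not overlap in any library. Gm13111 stood at 5.75 and 6.61 TPM beside Prdm16, a zinc finger regulator, at 3.81 and 5.24 TPM, with its value in replicate 1 only slightly above that of Prdm16 in replicate 2. Gm44210 at 2.01 and 2.47 TPM was above Efcc1 at 1.42 and 1.46 TPM, and A530058N18Rik at 2.32 and 2.01 TPM was above Gjd2, the neuronal gap junction gene, at 1.88 and 1.90 TPM. Gm45533, above the serotonin receptor gene Htr6, rested on 5 and 7 counts. The last 3 stood beside genes under the minimum: Gm15879 at 2.77 and 2.28 TPM with Dnase1 listed at 0 in both libraries, 1700124L16Rik at 1.83 and 1.41 TPM with Ankrd53 likewise at 0, and 4833422C13Rik at 2.39 and 1.57 TPM with Acot12 at 0.44 and 0.15 TPM.

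Reads of overlapping genes on opposite strands can be told apart only if the counting used strand, which the sources used here do not state for these tables; the labels name a spike-in profile for stranded libraries, and the deposited notes list separate signal files for the plus and minus strand. The measurements below do not settle this, because a model gave the expected counts and may assign few reads to a covered gene either way. Whether strand was used was not tested. Of the antisense genes by type, 49 have at least 90% of their exonic bases covered by exons of a detected other-strand gene with at least 1000 counts. Their counts per base were a median of 0% of the other gene's in both libraries, with a 90th percentile of 0.840% in replicate 1 and 1.33% in replicate 2. These 49 were taken at any level of their own; 2 of them are members, which the rule chose for a higher level. Gm11175 had 7.64% and 6.33% of the counts per base of Jund, and A630072M18Rik, at 2.14 and 2.02 TPM, had 62.4% and 54.9% of those of Rsbn1l. Altogether 82 members share at least 200 exonic bases with a detected gene on the other strand.

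The spread that the authors' model gives each count was small for most members. This spread does not cover counting error: it was 0 even for Gm45533, on 5 and 7 counts. No share over all genes was taken. The posterior SD of the count was 0 in both libraries for 164 of 181 members, and for 73 of the 82 that share at least 200 exonic bases. Among the 17 others in replicate 1 it was widest in Gm20687 (15.2 reads on 42.4 counts), Tug1 (13.2 reads on 4329 counts), Gm43079 (11.9 reads on 30.6 counts) and Zfhx2os (8.78 reads on 220 counts). The levels of Gm20687 and Gm43079 are uncertain, given an SD that large beside the count. Gm20687, Gm43079 and Gm49685 are the 3 members that share exonic bases with a coding gene on their own strand. In all, 8 members overlap the body of a same-strand coding gene and 22 begin within 5000 bases downstream of one. Among the 22 are Tmem147os after Atp4a, Fbxl12os after Zfp846 and 6330418K02Rik after Lamtor4. Whether reads of the upstream gene run into them was not tested. The same counts are not given for the other antisense genes, so whether they are particular to the members was not tested.

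Most members had several transcripts, led by one. A single transcript was annotated for 64 members, and 117 had more. In those 117 the leading transcript held a median of 59.7% of the gene's TPM, and the same transcript led in both quantifications in 91. The leading transcript had a median length of 991 bases (range 165 to 8927) and a single exon in 39 members. Taking each gene's longest transcript, 53 of 181 members (29.3%) were single-exon against 8.19% of the 2883 other antisense genes, and its median length was 1729 against 839 bases. Tug1 was spread most evenly among the top 3: its leading transcript Tug1-205 held 29.0% in the first quantification and 33.4% in the second. Trmt61b carries a coding gene's symbol, but its 3 transcripts are all of type antisense here, and it stood at 5.43 and 5.33 TPM.

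The 2 libraries gave like levels for the members. Ratios were taken from CPM scaled by TMM (edgeR's trimmed mean of M-values) over the 138 members with a mean of at least 1 CPM. The median log2 ratio of replicate 2 to replicate 1 was -0.08 for the members and 0.00 for all 14887 genes at that minimum. The median size of the ratio, without its sign, was 0.16 for members and 0.07 for all genes, but between 1.63 and 4.64 CPM, the lower and upper quartile of the members, it was 0.17 for 68 members and 0.18 for 2222 genes of all kinds. At 1.5-fold, 1 member was higher in replicate 2 (0.867% of all genes were) and 5 were lower (1.38% of all genes). No member was 2-fold apart, where 0.356% of all genes were higher and 0.161% lower.

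Counts of those 6 members lay between 25 and 121 in a library. 6330418K02Rik had 71 and 40 counts, a log2 ratio of -0.75 with a 95% Clopper-Pearson interval of -1.35 to -0.17 that covers counting error only. Zfp335os had 44 and 25 counts (log2 ratio -0.73), Gm15545 had 43 and 25 (-0.70), Prox1os had 59 and 36 (-0.63) and 4833422C13Rik had 121 and 75 (-0.61). Gm10516 was the member that was higher, with 57 and 84 counts and a log2 ratio of 0.63 (0.13 to 1.15). The interval of Gm15545 included 0. After Gm10516, the members with the largest ratios toward replicate 2 were 4921504A21Rik (0.35) and Fbxl12os (0.32), both with intervals that included 0.

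**Figure D4:**
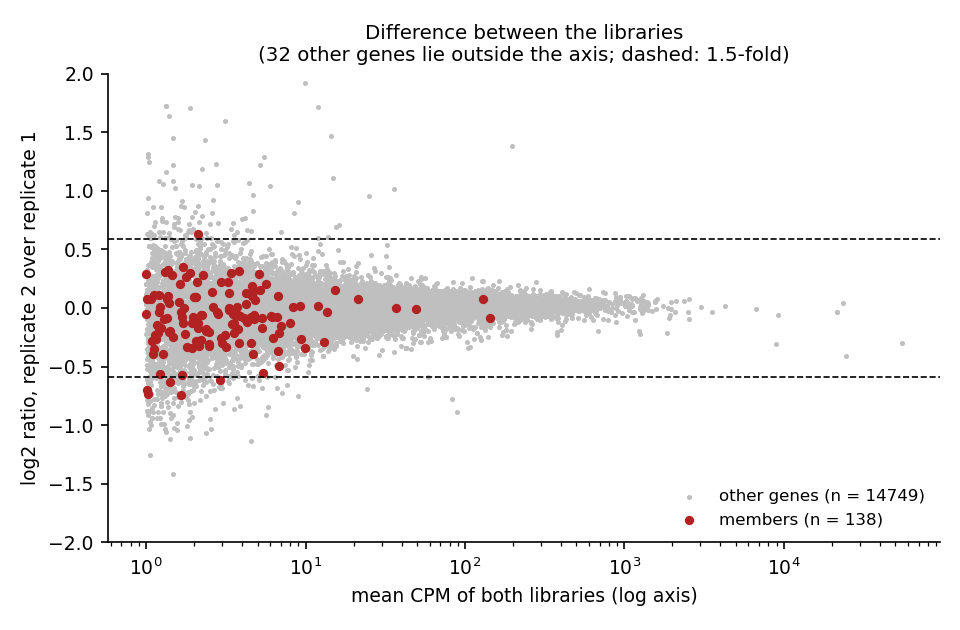
Log2 ratio of replicate 2 to replicate 1 (y axis) against the mean CPM of both libraries (x axis, log) for the 138 members (red) and the other genes (grey) with a mean of at least 1 CPM; dashed lines mark 1.5-fold, and 32 other genes lie outside the y axis. The members lie close to 0 but slightly below it, with a median of -0.08, and 6 lie beyond the dashed lines. The size of their ratios, without sign, was like that of other genes of their level.

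A second quantification made by the authors from the same reads, without the alignment, checks the levels. The median log2 ratio of its TPM to the first was 0.70 in each library over all genes, and 0.77 over the members, though single genes were lower in it. At least 1 TPM in both libraries was kept by 175 of the 181 members, beside 96.4% of all genes that had it in the first. Relative to the median shift of all genes, 3 members were at least 2-fold higher in both libraries (0.91% of all genes) and 9 at least 2-fold lower (4.03% of all genes). The median after the shift was 0.02 for the 82 members that share at least 200 exonic bases with a detected other-strand gene, and 0.12 for the 53 that share none.

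The members that moved are those whose level depends on the method. Gm11973 stood at 4.0 and 2.82 TPM in the first quantification and at 0.817 and 0.399 TPM in the second, a mean log2 ratio of -3.26 after the shift. Rab26os went from 10.1 and 9.14 TPM to 2.06 and 3.44 TPM (-2.55), with 55 and 44 counts in the first and 6 and 9 in the second. Gm49685 went from 4.77 and 3.62 TPM to 1.34 and 1.05 TPM (-2.51). Higher in the second were Gm43079 (1.48), Gm26782 (1.32) and Gm40578 (1.23), of which Gm43079 and Gm40578 overlap a coding gene on their own strand. Gm45533, Gm29155 and Snhg9 were listed at 0 in the second; they had 5 and 7, 7 and 5, and 3 and 2 counts in the first, and leading transcripts of 165, 269 and 183 bases. Snhg9 is the host of a small nucleolar RNA and met the rule on the fewest counts of any member.

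**Figure D5:**
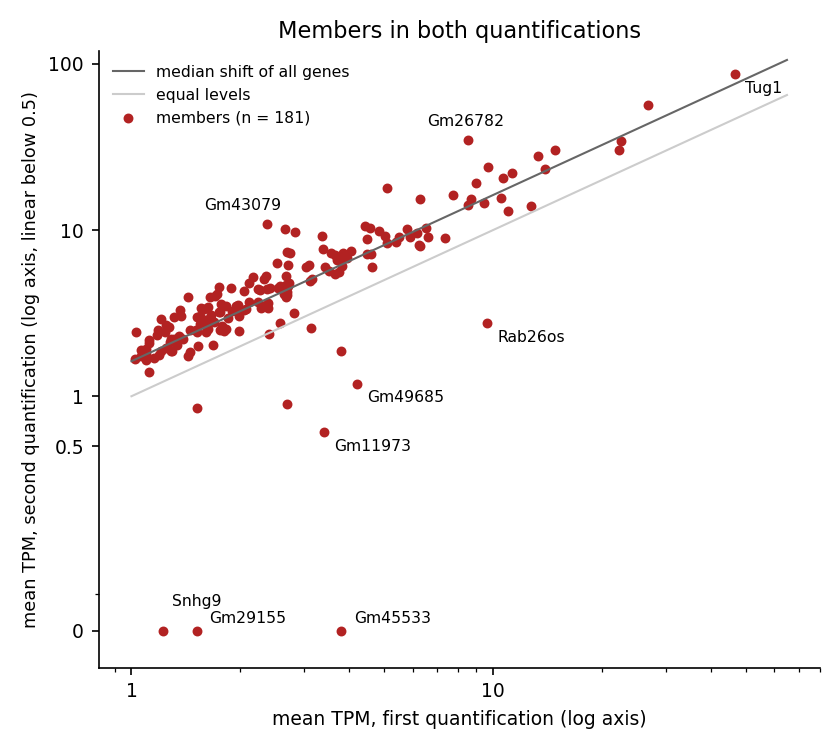
Mean TPM of each of the 181 members over both libraries in the first (x axis, log) and second quantification (y axis, log, linear below 0.5), with the line of equal levels and the line of the median shift of all genes (0.70 on the log2 scale). Most members lie along the shift line; Rab26os, Gm49685 and Gm11973 lie below it and Gm45533, Gm29155 and Snhg9 at 0.

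Antisense genes of 2 lists show which known ones were expressed. The first list held 33 names for antisense genes of transcription factors, not all of them forebrain factors, and was made with earlier results known. Over all antisense genes by type other than the 3 left out, 5.91% were members. Of the 33 names, 19 had a row, 14 of these were antisense by type, and 5 were members: Emx2os, Dlx1as, Zfhx2os, Zeb2os and Prox1os, with the values above. The others by type were low apart from Dlx6os1: Six3os1 at 0.17 and 0.25 TPM, Pax6os1 at 0.15 and 0.19, Nkx2-2os at 0.06 and 0.12, Vax2os at 0.19 and 0.02, Dlx4os at 0 and 0.08 and Hoxaas2 at 0.04 and 0 TPM, while Wt1os and Hoxaas3 were listed at 0 in both libraries. Sox2ot, at 12.3 and 12.5 TPM, and Sox1ot, at 3.40 and 4.03 TPM, have no antisense transcript in the annotation and so are no members. Of 15 names from imprinted or X-inactivation loci, 9 had a row and 6 were antisense by type, Kcnq1ot1 and Snhg14 included, and none was a member. Airn, antisense to Igf2r, stood at 0.71 and 1.01 TPM, Tsix, antisense to Xist, at 0.14 and 0.12, Igf2os at 0.12 and 0.14, and Nespas at 0 and 0.04 TPM.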

How the data were processed

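Total RNA-seq of 2 hippocampus libraries was analysed as 1 group, with replicate numbers from the labels. Per the deposited notes, reads were compared with mm10 and GENCODE M21; no source used here names the tools. For each library the authors deposited, per the file headers, a gene table and a transcript table in the layout of RSEM, derived from a transcriptome alignment, with an expected count and TPM, a score (the posterior SD of the count) and the percent of a gene's TPM held by each transcript, and a second transcript table in the layout of kallisto, derived from the reads, with an estimated count and TPM. The second table was summed per gene. Transcript types are those in its identifiers.

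The members and lists were chosen with earlier results of these data known. Named genes are the members whose symbol, without a final os, as or ot, is another gene's, with that gene; the 10 highest; the 3 on each side of the threshold; the 3 with the largest ratio in each direction between libraries and between tables; and the antisense genes of the 2 lists. Other genes named, such as neighbours, members above their neighbour and members with a wide posterior SD, were chosen after their values were seen. Expected counts were rounded and scaled by TMM (edgeR 4.0.16, R 4.3.3), with a prior count of 0.5 in log2 ratios; floors rest on 3 counts. Intervals and floors cover counting error only, since reads are not independent molecules. Positions come from the GENCODE M21 annotation of mm10, and all 55536 gene rows matched it. A gene's start is its outermost annotated end. The ratio step was tested on simulated counts. Other steps used Python 3.11.15, pandas 2.3.3, numpy 2.4.6 and, for intervals, scipy 1.17.1. Alternatives were other TPM and CPM minimums, the second table, DESeq2 1.42.0 size factors, ERCC totals, a pseudocount, counts without length correction, other choices of partner and each library alone. Reads from the CAST/EiJ parent's allele may align less well to mm10, which is a C57BL/6J sequence, and alleles were not analysed here.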

Additional observations from a re-analysis of the deposited data

How the results depend on the processing

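The number of members followed the minimum: 312 at 0.5 TPM, 99 at 2 TPM and 349 at 1 TPM in the second table, whose median over genes is higher, and 203 to 211 with either library alone. The median level was 3.96 TPM in the second table and 5.66 TPM rescaled over nuclear protein-coding genes, and 2.24 to 2.40 TPM with either library alone. The median log2 ratio of antisense gene to partner was -4.20 with counts not corrected for length, -2.26 in the second table, -2.27 for the 169 pairs by largest overlap and -2.25 for the 5 pairs that share under 100 exonic bases (chosen after seeing the data); either library alone gave -2.37 to -2.34. Dlx1as was near Dlx1 with counts per exonic base (0.07), and it turned from above to below Dlx1 with counts not corrected for length (-1.66). Over the 23 pairs with a ratio in both libraries, 92 settings of single pairs kept both libraries; 35 moved by less than the SD of the libraries, 56 by more, and that 1 changed sign. Besides Rab26os, the second table moved by over 1.5 times Kcnd3os (to -3.28), Zfhx2os (-1.99), Zfp652os (-1.86) and Prox2os (1.95). Besides Rab10os, Junos and Zeb2os, counts per exonic base so moved Hk1os (-7.64), Man2c1os (-3.95), Fbxl12os (-3.18), Zfp85os (-1.91), Zfp652os (-1.48), Runx2os1 (-0.75), N4bp2os (-0.52) and Prox2os (2.17), a setting chosen after seeing the data. The median ratio between libraries was -0.26 with ERCC totals, and the cause was not tested. Against 6 members 1.5-fold apart, 2 of 133 were in the second table, and 0 of 29 at 5 CPM and 0 of 60 at 100 counts (the last chosen after seeing the data), both on fewer members; it was 9 with ERCC totals and 8 of 181 with no CPM minimum. No paired analysis was possible because the series has 1 group. Low counts limit precision: 6 members had under 10 counts in a library.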
